A study of Mus musculus with 2 samples.

Results

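The dendritic cells of the mouse fracture callus were taken as a set of barcodes from single-cell RNA libraries. A barcode was kept if it held at least 200 genes and at most 20% of its unique molecular identifiers (UMIs, the tags that mark single RNA molecules) came from mitochondrial genes. It was called a dendritic cell if, per 10000 of its UMIs, H2-Aa, H2-Ab1 and H2-Eb1 together reached 20, C1qa, C1qb and C1qc together stayed under 10 and Col2a1 stayed under 100, if Flt3, Zbtb46, Xcr1, Clec9a, Cd209a and Ccr7 together had at least 2 UMIs, and if Cd79a and Ms4a1 had none. The rule was applied to each library separately and gave 100 dendritic cells of 13460 kept barcodes in the library MGJ, a share of 0.743% (exact binomial 95% interval 0.605 to 0.903), and 526 of 7806 in MGJ2, a share of 6.74% (6.19 to 7.32). Together these were 626 of 21266 kept barcodes. The genes of the rule chose the cells, so their levels are a description of the choice and no finding.

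The mice were wild-type C57BL/6J males aged 12 weeks. The right femur was broken across the middle of the shaft and held with a needle in the medullary cavity, and the callus, the repair tissue that bridges a break, was collected 10 days (5 mice) and 20 days (5 mice) after the fracture, digested with enzymes and loaded for droplet sequencing from the 3′ end of transcripts. All animals carried the fracture and no library came from unbroken bone. The labels do not give either library a day, so no value was read as a change over time and MGJ and MGJ2 are set side by side as 2 single libraries, without p-values. The intervals given throughout are at the 95% level and cover counting error only, not differences between mice or between cells.

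Dendritic cells take up protein, cut it and show the pieces on MHC class II molecules to CD4+ T cells. Type 1 conventional dendritic cells (cDC1) carry Xcr1 and Clec9a and present to CD8+ T cells as well, type 2 cells (cDC2) carry Clec10a, Mgl2 and often Cd209a, and plasmacytoid dendritic cells are known as a source of type I interferon. On maturation a dendritic cell of any type raises Ccr7, the receptor for the chemokines Ccl19 and Ccl21 that guide it to a lymph node, together with co-stimulatory ligands and the actin bundling protein Fscn1. In bone and callus, the same myeloid precursors that give rise to these cells can also give rise to monocytes, macrophages and osteoclasts.

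The class II genes are read together through short promoter elements, an X box bound by the RFX complex and a Y box bound by NF-Y, which recruit the co-activator Ciita. The 100 bases before the RefSeq start (GRCm38.p6, chromosome 17) are shown for the 7 of these genes whose window held the Y box core. The family was looked at because the dendritic cells differed from the barcodes most like them in several of its genes, as given below. Each is printed 5′ to 3′ on the strand of the gene, with exact matches to the Y box core ATTGG and the X box core TAGCAAC in capitals.
H2-Aa (chr17:34287824-34287923, minus strand): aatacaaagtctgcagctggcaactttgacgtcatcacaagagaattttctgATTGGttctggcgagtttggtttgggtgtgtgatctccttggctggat
H2-Eb1 (chr17:34305767-34305866, plus strand): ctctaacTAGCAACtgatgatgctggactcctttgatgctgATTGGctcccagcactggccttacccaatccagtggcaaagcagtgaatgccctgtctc
H2-DMb1 (chr17:34153091-34153190, plus strand): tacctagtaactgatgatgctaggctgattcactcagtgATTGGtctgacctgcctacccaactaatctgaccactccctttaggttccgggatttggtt
H2-DMb2 (chr17:34145149-34145248, plus strand): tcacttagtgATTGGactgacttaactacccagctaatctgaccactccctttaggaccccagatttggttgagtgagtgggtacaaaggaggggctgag
H2-Oa (chr17:34092279-34092378, plus strand): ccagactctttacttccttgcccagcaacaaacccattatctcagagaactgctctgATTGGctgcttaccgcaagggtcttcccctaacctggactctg
H2-Ob (chr17:34238805-34238904, plus strand): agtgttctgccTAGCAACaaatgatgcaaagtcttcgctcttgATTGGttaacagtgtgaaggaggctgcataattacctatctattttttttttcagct
H2-Eb2 (chr17:34325575-34325674, plus strand): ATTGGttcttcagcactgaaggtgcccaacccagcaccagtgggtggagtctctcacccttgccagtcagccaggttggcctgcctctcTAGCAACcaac
ATTGG stood in 7 of the 9 promoter entries of class II genes, and the 2 entries without it were both of H2-DMa. H2-Ab1 had no entry. Of 24 entries of the mature list described below, 2 held ATTGG on the own strand (Adam8 and Marcksl1) and none TAGCAAC. In the same 100 bases before the start, over the promoter entries of all genes and on the gene's own strand, ATTGG stood in 3407 of 32851, or 10.4%, and on either strand in 18.9%. TAGCAAC stood in H2-Eb1, H2-Ob and H2-Eb2, that is in 3 of the 9 entries, against 0.861% of all entries on the own strand and 1.62% on either. The distance of ATTGG from the start ranged from 43 bases in H2-Oa to 100 in H2-Eb2. TAGCAAC lay farther out than ATTGG in H2-Eb1 (93 and 59 bases) and H2-Ob (89 and 57). In H2-Eb2 it lay on the other side, at 11, so that match may not be an X box. Only exact matches were sought, so the windows without TAGCAAC may hold a variant of it, or an X box beyond the 100 bases. These letters are a description of the windows and say nothing of which factor was bound in these cells.

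4 sets of barcodes from the same library served as references. The closest were the MHC class II barcodes, which met every part of the rule except that the 6 dendritic cell genes summed to 0 or 1 UMI (427 in MGJ and 531 in MGJ2). The others were monocytes (Ly6c2, Ccr2 or Csf1r, low in C1q and in class II), C1q macrophages (853 in MGJ, while the 33 in MGJ2 were too few to compare) and neutrophils (2850 and 2097), in which genes of dendritic cells should be absent, so that their share of cells with a UMI is a background level for free RNA. Of the 903 and 1594 monocyte barcodes, 63 and 278 held a Cd3 UMI, so a narrower set without genes of T, NK, granulocyte, progenitor or osteoclast cells was made after this was seen (399 and 785 barcodes), and monocyte ratios below refer to that narrower set unless the wide set is named. The median dendritic cell had 7444.5 UMIs in MGJ and 9929 in MGJ2, against 5877 and 8785 in the MHC class II barcodes and 2405 and 3027 in the neutrophils. Levels are counts per 1000000 UMIs of a set (CPM). A ratio of 2 sets was called higher or lower where it reached 2-fold. Depth bears on which barcodes the rule picks, since barcodes with more UMIs reach 2 UMIs of the 6 genes more readily. Applied to barcodes thinned to 2000 UMIs, the rule gave a share of 0.625% in MGJ and 4.06% in MGJ2, and Ccr7 cells, those with Ccr7 as the leading gene, made up 87.3% and 68.3% of the dendritic cells. These shares are over the barcodes with at least 2000 UMIs only, a smaller base than that of the shares given first. Of the dendritic cells called at full depth, 98 and 521 belonged to that base.

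The 6 genes that admitted a cell contributed unequally. Ccr7 had a UMI in 89 of 100 dendritic cells in MGJ and in 327 of 526 in MGJ2, and Cd209a, a C-type lectin of cDC2, in 30 and 328. Flt3, the receptor for the cytokine that sustains dendritic cells, had a UMI in 23 and 311, and Zbtb46, a transcription factor of conventional dendritic cells, in 13 and 153. Xcr1 was found in 2 and 23 and Clec9a in 5 and 24. In MGJ 44 dendritic cells held Ccr7 and none of the other 5 genes, and in MGJ2 47 did. Had Ccr7 not been counted, 34 dendritic cells would have been left in MGJ and 429 in MGJ2. The MGJ set thus rested mainly on Ccr7, and the MGJ2 set on Ccr7, Cd209a and Flt3 together.

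At the threshold, 26 barcodes in MGJ and 153 in MGJ2 had met the other parts of the rule with 1 UMI of the 6 genes and stayed out, and 8 and 74 came in with exactly 2. The median class II level of the dendritic cells was 274 per 10000 UMIs in MGJ and 246 in MGJ2, far from the limit of 20, and the lowest members stood at 31.5 and 22.7 beside outsiders at 19.9 in both libraries. C1q was at 0 in 83 and 500 dendritic cells, with the nearest members at 9.58 and 9.63 and the nearest outsiders at 10.6 and 10.7. A further 23 and 350 barcodes were left out for Cd79a or Ms4a1 UMIs alone. Of all kept barcodes with at least 5 Ccr7 UMIs, 65 of 100 in MGJ and 230 of 516 in MGJ2 were dendritic cells, and the rest included 4 and 128 with a Cd3 UMI and 9 and 127 with a B cell UMI.

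**Figure D1:**
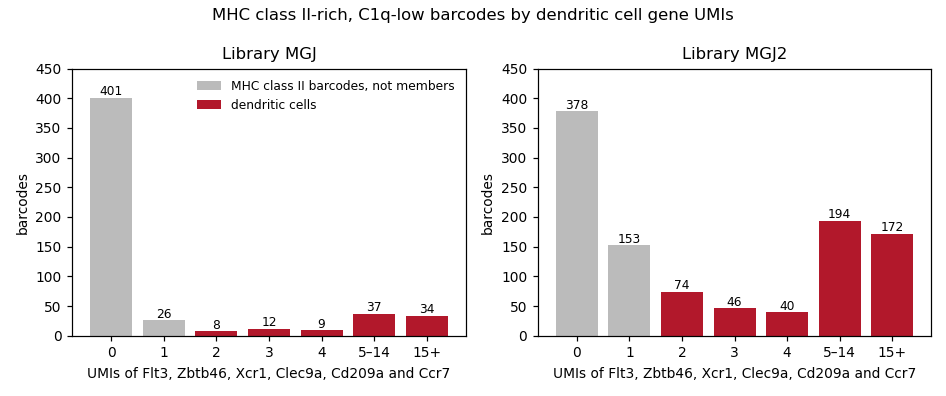
Number of barcodes that met the other parts of the rule (y axis) by their UMIs of the 6 dendritic cell genes together (x axis), with a panel for each library, the MHC class II barcodes in grey and the dendritic cells in red. Of 100 dendritic cells in MGJ, 8 had 2 UMIs, the least that the rule allows, and of 526 in MGJ2 74 did.

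The label of dendritic cell was checked against markers of other cells. The summed level of 12 macrophage markers was 188 CPM in the dendritic cells of MGJ and 258 in MGJ2, against 755 and 555 in the MHC class II barcodes, with Folr2 and Vsig4 at 0 in MGJ and Vsig4 and Mertk at 0 in MGJ2. C1qa, C1qb and C1qc are among these 12, and the rule capped them in both sets. Of the macrophage markers outside the rule, 4 of 5 compared in MGJ were at least 2-fold lower and 0 higher. For 12 monocyte markers it was 3861 and 4199 CPM, against 7297 and 8058, and all 12 were found. A Cd3 UMI was present in 1 and 17 dendritic cells, and the T cell list as a whole (641 and 648 CPM) was carried mostly by Il7r at 607 and 579 CPM. The MHC class II barcodes held 322 and 238 CPM of that list, and 9 of the 10 T cell markers compared in MGJ2 were at least 2-fold higher in the dendritic cells, Cd3d, Trac and Trbc2 among them. Neutrophil markers summed to 6932 CPM in MGJ and 4779.6 in MGJ2, against 6754 and 2071 in the MHC class II barcodes, and 1 of 10 and 6 of 12 were at least 2-fold higher. They had a median of 3.31 and 3.19 per 10000 UMIs in the dendritic cells, of which 6 and 14 reached 50 or more. In the MHC class II barcodes the median was 5.75 and 3.94, and 68 and 51 barcodes reached 50 or more. Among B cell markers, Cd79a and Ms4a1 were at 0 by the rule and the summed level was 129 and 113 CPM, against 28 and 85.7. In MGJ2 6 of 6 endothelial markers (52.5 CPM, against 11.6) and 7 of 7 myeloid progenitor markers (397 CPM, against 12.2) were at least 2-fold higher as well, where 1 cell held 516 of 666 Mpo UMIs. Of all genes, 6.55% in MGJ and 8.25% in MGJ2 were at least 2-fold higher than in the MHC class II barcodes. The dendritic cells thus stood below these closest neighbours in summed macrophage and monocyte RNA. In both libraries they stood above them in summed RNA of T cells, neutrophils, B cells and myeloid progenitors, but below them in the median of the neutrophil markers. Endothelial RNA stood above in MGJ2 alone. In MGJ fibroblast and osteoblast markers did as well (2968 CPM, against 1635), with 4 of 7 at least 2-fold higher and 0 lower. Of the B cell markers 3 of 4 were higher there and 0 lower. The part of these other cells in the results was not tested, except where values without them are given. The chondrocyte list stood at 1105 CPM in the dendritic cells of MGJ and 92.6 in MGJ2, beside 1347 and 106 in the MHC class II barcodes.

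Beside the MHC class II barcodes, the dendritic cells were higher in genes known from mature dendritic cells. Of 26 genes on that list, 22 in MGJ had the 20 UMIs in both sets together that a comparison needed, and 13 were at least 2-fold higher and 1 lower. Over all genes compared 512 of 7821 were higher (6.55%) and 777 of 7821 lower (9.93%). In MGJ2 the list gave 12 of 24 higher and 0 lower, against 8.25% and 5.71% of 9846 genes. The median ratio of the list was 3.63 and 1.97, beside 0.984 and 1.01 for all genes. Ccr7 and the other genes of the rule took no part in these counts. But Ccr7 was among the genes that admitted cells, so a list that goes with Ccr7 is not independent of the rule. This bears most on MGJ, where 34 dendritic cells would be left without Ccr7, against 429 in MGJ2.

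Ccl22, a chemokine that draws Ccr4-bearing T cells, was found at 239.6 CPM (208 to 275) in the dendritic cells of MGJ, with UMIs in 25 of 100 cells, and at 226 CPM (214 to 239) in MGJ2, with UMIs in 194 of 526. The MHC class II barcodes held 2.27 and 5.14 CPM, which gave ratios of 105 (47.6 to 291) and 43.9 (29.4 to 68.8). Thinned to 2000 UMIs a barcode, 14.3% and 20.3% of dendritic cells kept a Ccl22 UMI (25% and 36.9% before thinning), against 0% and 0.173% of neutrophils. Ccl17, a chemokine for the same receptor, was 46.5 and 18.5 CPM with ratios of 15.3 (7.07 to 38) and 17.2 (7.15 to 54.2), and 9.05 in MGJ without the dendritic cell that held the most of it. Both chemokines were thus near absent from the closest reference. Il4i1, a secreted enzyme that breaks down amino acids, was 331 CPM in MGJ and 75.4 CPM in MGJ2, against 10.6 and 14.1 CPM in the MHC class II barcodes, which gave ratios of 31.3 (21.2 to 47.9) and 5.33 (4.11 to 7.02). Il12b, the shared subunit of the cytokines Il12 and Il23, rested on few cells in MGJ, where 108 UMIs lay in 6 dendritic cells. In MGJ2 32 dendritic cells held 394 Il12b UMIs (69.9 CPM), and the MHC class II barcodes held 0.857 CPM.

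Genes outside the mature list also passed 2-fold in both libraries. Tbc1d4, a Rab GTPase activating protein, was 300.5 CPM in MGJ and 169 CPM in MGJ2, against 7.20 and 7.07 CPM in the MHC class II barcodes, which gave ratios of 41.8 (26.2 to 70.5) and 24 (16.9 to 35). Serpinb9, an inhibitor of granzyme B, was 242 CPM in MGJ and 182 CPM in MGJ2, against 18.9 and 11.4 CPM in the MHC class II barcodes, which gave ratios of 12.8 (9.34 to 17.8) and 16.1 (12.2 to 21.6). Mmp25, a membrane-bound matrix metalloproteinase, had ratios of 17.1 and 19.4, Arap2 of 10.2 and 23.2, P2ry10 of 11.9 and 9.74, and Ramp3, a partner of the calcitonin family receptors, of 8.48 and 9.31. These genes were on no list and were named because their ratio in the library where it was smaller was among the 10 largest of all genes with at least 50 UMIs in the dendritic cells of each library. Within the mature list, Fscn1, the actin bundler of mature dendritic cells, was sparse, with UMIs in 13 of 100 and 10 of 526 dendritic cells and ratios of 28.9 (15.5 to 59.8) and 8.69 (3.78 to 24.6). Cacnb3, a calcium channel subunit, had ratios of 38.8 (12.3 to 197) and 11 (3.52 to 55.8), and Socs2, a suppressor of cytokine signalling, 7.76 (4.93 to 12.5) and 2.20 (1.52 to 3.23). Birc2, Samsn1 and Tmem123 stood at 5.41, 5.01 and 2.80 in MGJ and at 2.05, 1.89 and 2.21 in MGJ2, so Samsn1 passed 2-fold in MGJ alone.

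**Figure D2:**
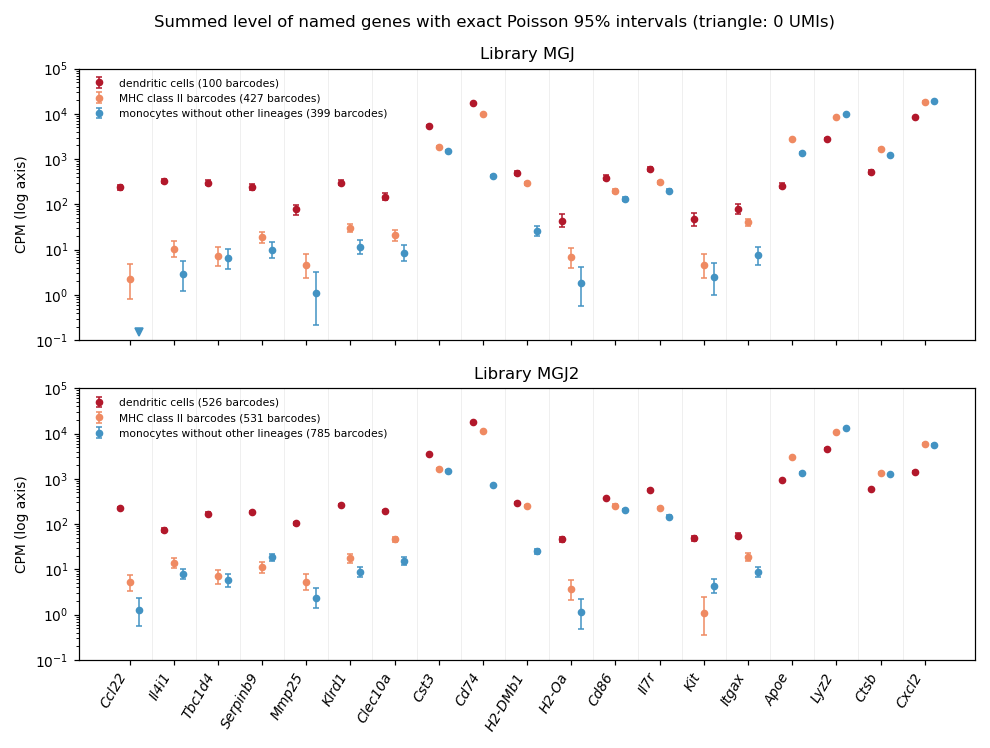
Level in CPM (y axis, log scale) of genes (x axis) in the dendritic cells, the MHC class II barcodes and the narrower monocytes, with a panel for each library, points for the summed level of a set, bars for the exact Poisson 95% interval and a triangle for 0 UMIs. Ccl22 stood at 239.6 CPM in the dendritic cells of MGJ and 226 in MGJ2, against 2.27 and 5.14 in the MHC class II barcodes, and Apoe at 259.9 and 924 against 2738 and 3002.

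Genes that load peptide on class II molecules were also higher, in part. Of the pathway genes that the rule did not use, 5 of 13 in MGJ and 4 of 15 in MGJ2 passed 2-fold upward over the MHC class II barcodes and 0 and 0 passed it downward, with medians of 1.68 and 1.35. The same shares over all genes were 6.55% and 8.25% upward and 9.93% and 5.71% downward. Both sets had been chosen for the class II genes themselves, which limits what this comparison can show. Cd74, the invariant chain that holds the groove until a peptide is loaded, was 17065 CPM in MGJ and 17987 CPM in MGJ2, against 9924 and 11346 CPM in the MHC class II barcodes, which gave ratios of 1.72 (1.68 to 1.76) and 1.59 (1.57 to 1.60). H2-DMb2, a subunit of the peptide exchange factor H2-DM, had ratios of 8.59 (4.18 to 19) and 6.37 (3.77 to 11.5), while its relative H2-DMb1 had 1.68 and 1.20. These are near-identical paralogs, so reads may have been shared between them. H2-Oa and H2-Ob, which form the H2-O modulator of H2-DM, had ratios of 6.47 and 3.15 in MGJ and 12.7 and 11.4 in MGJ2. H2-Eb2, a beta chain gene beside H2-Eb1, had 25.2 (8.93 to 98) and 7.68 (4.12 to 15.9). The genes with the larger ratios were thus H2-DMb2, H2-Oa, H2-Ob and H2-Eb2. All 4 are among the promoters printed above, which were printed for holding ATTGG, and so is H2-DMb1.

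Ciita, the co-activator of class II transcription, was 45.3 and 34.1 CPM with ratios of 4.13 (2.48 to 6.94) and 1.22 (0.974 to 1.54), and so passed 2-fold in MGJ alone. Ctss, the protease that trims Cd74, was below 1 in both libraries (0.645 and 0.724), as was Lgmn (0.595 and 0.810), and neither passed 2-fold. Ifi30, a lysosomal thiol reductase, had 1.5 and 1.24. Against the monocytes, which had been chosen for low class II, 8 of 12 pathway genes in MGJ and 8 of 15 in MGJ2 were higher, with medians of 11.7 and 5. Over all genes, 9.36% and 8.37% were higher than in these monocytes and 10.1% and 7.85% lower. Cd74 was 39.8-fold and 24.7-fold higher there.

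Co-stimulatory ligands gave a mixed picture. Of 13 and 14 genes compared with the MHC class II barcodes, 5 and 3 were higher and 2 and 1 lower. All genes gave 6.55% and 8.25% higher and 9.93% and 5.71% lower. Cd80 and Cd86, the ligands of Cd28 on T cells, had ratios of 2.43 (1.79 to 3.30) and 1.98 (1.72 to 2.28) in MGJ and 2.54 (2.23 to 2.88) and 1.44 (1.34 to 1.54) in MGJ2. Pdcd1lg2, a ligand of the inhibitory receptor PD-1, was 76.3 and 26.4 CPM with ratios of 3.80 and 3.74. Tnfsf4, the ligand of OX40, had 28.3 (6.78 to 252) in MGJ from 18 UMIs against 2, and in MGJ2 no UMI in the MHC class II barcodes, which made it at least 8.56-fold higher against a floor of 3 counts. Cd40 was 4.45 in MGJ but 1.01 in MGJ2, and Cd83 2.37 and 0.976. Cd80, Pdcd1lg2 and Tnfsf4 were thus past 2-fold in both libraries, whereas Cd40 and Cd83, usual markers of maturation, were past it in MGJ alone.

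Among receptors and other surface or structural genes, Klrd1, Kit and Cst3 were past 2-fold in both libraries and Itgax and Il7r in MGJ2 alone. Itgax, the integrin chain CD11c, had ratios of 1.99 and 3. Klrd1, the lectin CD94 of NK cells and some cDC2, was 303 CPM in MGJ and 259.6 CPM in MGJ2, against 30.3 and 17.8 CPM in the MHC class II barcodes, which gave ratios of 10 (7.75 to 13) and 14.6 (11.7 to 18.4). After thinning, 29.6% and 23.4% of dendritic cells had a Klrd1 UMI, against 2.27% and 1.80% of MHC class II barcodes and 0.0567% and 0.922% of neutrophils. The NK cell genes Nkg7, Gzma or Ncr1 were present in 1 and 26 dendritic cells. Kit, the receptor for stem cell factor, had 10.2 (5.25 to 21.5) and 45.7 (19.4 to 142). Il7r, the receptor chain for Il7 and TSLP, was 607 CPM in MGJ and 579 CPM in MGJ2, against 306 and 224 CPM in the MHC class II barcodes, which gave ratios of 1.99 (1.77 to 2.22) and 2.58 (2.41 to 2.77). Cst3, the protease inhibitor cystatin C, was 2.95-fold and 2.14-fold higher, and the actin genes Actb and Tmsb4x had 1.51 and 1.94 in MGJ and 1.45 and 1.55 in MGJ2.

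Genes of the cDC2 list passed 2-fold upward over the MHC class II barcodes more often than all genes did. For the cDC1 list too few genes were compared to set its share apart from that of all genes or of the cDC2 list. The shares over all genes were 6.55% in MGJ and 8.25% in MGJ2 higher, and 9.93% and 5.71% lower. Of the cDC2 list, 5 of 13 genes in MGJ and 6 of 13 in MGJ2 passed 2-fold upward over the MHC class II barcodes and 0 and 0 downward, with medians of 1.39 and 1.91. Cd209a, a gene of cDC2, was among the 6 genes that chose the cells, so the direction of this list is partly set by the rule. Clec10a and Mgl2, paired galactose-binding lectins of cDC2 and of some macrophages, had ratios of 7.16 (5.17 to 10) and 10.3 (6 to 18.6) in MGJ and 4.16 (3.59 to 4.84) and 6.88 (5.28 to 9.10) in MGJ2. They are neighbours of similar sequence, so their counts may not be fully separate. Cd7 had 7.56 and 21.7. Of the cDC1 list, 1 of 9 and 2 of 10 were higher and 1 and 1 lower. Irf8, the transcription factor of cDC1 and plasmacytoid cells, had 2.68 and 1.56, and Irf4, that of cDC2, 2.05 and 2.34.

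Across 29 and 30 transcription factors compared with the MHC class II barcodes, 7 and 4 were higher and 5 and 4 lower. Beside this, 6.55% and 8.25% of all genes were higher and 9.93% and 5.71% lower. Zeb1 had ratios of 5.95 (3.91 to 9.17) and 5.34 (3.94 to 7.37) while its relative Zeb2 had 0.553 (0.50 to 0.609) and 0.470 (0.452 to 0.488), and so the pair stood on opposite sides of 1 in both libraries. Nr4a3, an immediate early factor of migratory dendritic cells, had 3.84 and 2.19, and Rel, an NF-kB subunit, 2.79 and 1.58. Cebpb, a factor of monocytes and macrophages, had 0.407 and 0.497.

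Genes of macrophage lipid handling were lower in the dendritic cells. Of 14 compared with the MHC class II barcodes in each library, 7 in MGJ and 8 in MGJ2 were at least 2-fold lower and 0 and 0 higher. The shares of all genes were 9.93% and 5.71% lower and 6.55% and 8.25% higher. Apoe, the lipoprotein that macrophages secrete, was 259.9 CPM in MGJ and 924 CPM in MGJ2, against 2738 and 3002 CPM in the MHC class II barcodes, which gave ratios of 0.0949 (0.0826 to 0.109) and 0.308 (0.298 to 0.318). After thinning, 12.2% and 28.2% of dendritic cells held an Apoe UMI against 76.4% and 77.4% of the MHC class II barcodes. Abca1, the cholesterol exporter, had ratios of 0.435 and 0.482, Plin2, a lipid droplet protein, 0.333 and 0.411, and Cd36, a scavenger receptor, 0.329 and 0.189. Trem2, a lipid receptor of macrophages and osteoclast precursors, had 0.390 (0.272 to 0.545) and 0.197 (0.135 to 0.281), and Lpl 0.247 and 0.0400. The MHC class II barcodes held C1q under the same limit as the dendritic cells, but their macrophage list was higher, as given above.

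Lysosomal proteases were lower too, in 6 and 6 of 20 genes, beside 9.93% and 5.71% of all genes. In each library 1 gene of the list was higher, Cst3, beside 6.55% and 8.25% of all genes. Ctsb, Ctsd and Ctsl, cathepsins of the endosome and lysosome, had ratios of 0.313, 0.379 and 0.289 in MGJ and 0.437, 0.348 and 0.444 in MGJ2. Lyz2, the lysozyme of myeloid cells, was 2815 CPM in MGJ and 4638 CPM in MGJ2, against 8520.5 and 10560.5 CPM in the MHC class II barcodes, which gave ratios of 0.330 (0.317 to 0.345) and 0.439 (0.433 to 0.446). Against the C1q macrophages of MGJ, 11 of 20 lysosome genes and 13 of 14 lipid genes were lower, against 20.6% of all genes, and 17 of 23 mature genes were higher, against 8.15%. Against the monocytes, 5 and 5 of 20 lysosome genes were lower and 2 and 1 higher, and 5 and 7 of 14 lipid genes were lower and 1 and 0 higher, beside 10.1% and 7.85% of all genes lower. Against the wide monocytes of MGJ2, 3 of 20 lysosome genes were lower and 3 higher, with a median of 1.18, and 4 of 14 lipid genes were lower and 1 higher, with a median of 0.983, beside 24.0% of all genes lower.

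Chemokines split between those of dendritic cells and those of inflammatory myeloid cells. Over the MHC class II barcodes, 2 of 14 were higher and 6 lower in MGJ and 4 of 14 higher and 4 lower in MGJ2. For this and the next counts, all genes gave 6.55% and 8.25% higher and 9.93% and 5.71% lower. Among the 4 chemokines higher in MGJ2 was Cxcl9, which rested on 1 cell, as given below. The neutrophil attractants Cxcl2 and Cxcl3 were lower, with ratios of 0.453 and 0.330 in MGJ and 0.239 and 0.339 in MGJ2. Ccl5, which draws T cells and monocytes, had 1.31 (1.16 to 1.49) and 2.86 (2.58 to 3.17). Of cytokines, 4 of 15 were higher and 4 lower in MGJ and 2 of 16 higher and 5 lower in MGJ2. Tnf had 0.405 and 0.230, Il1rn, the natural blocker of the Il1 receptor, 0.591 and 0.487, and Il10, an inhibitory cytokine, 0.561 and 0.317, while Il1b had 1.22 (1.18 to 1.26) and 1 (0.984 to 1.02). Among pattern receptors, 3 and 5 of 24 and 27 were higher and 5 and 5 lower, the latter with Tlr2 at 0.453 and 0.402. Il10 and Il1rn did not pass 2-fold in MGJ.

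Piezo1, a mechanically gated cation channel, stood in the dendritic cells at 48.9 CPM (35.1 to 66.3) in MGJ and 71.9 CPM (65 to 79.2) in MGJ2, against 82.6 and 95.8 CPM in the MHC class II barcodes, with ratios of 0.592 (0.413 to 0.830) and 0.750 (0.654 to 0.860), neither past 2-fold. Thinned to 2000 UMIs, 5.10% and 12.3% of dendritic cells had a Piezo1 UMI (35% and 50.4% unthinned), and 2.95% and 4.38% of neutrophils did.

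Few interferon-stimulated genes or cytokine receptors passed 2-fold. For the former, 1 of 25 and 3 of 27 were higher and 4 and 3 lower than in the MHC class II barcodes, and for the latter 3 of 24 and 4 of 25 were higher and 1 and 3 lower, beside 6.55% and 8.25% of all genes higher and 9.93% and 5.71% lower. Il1r2, the decoy receptor for Il1, was 3.25-fold higher in MGJ and 1.83 in MGJ2. Genes of the G2 and M phases had at least 5 UMIs in 22% (14.3 to 31.4) of dendritic cells in MGJ and 19.4% (16.1 to 23) in MGJ2, and in 3.51% and 8.29% of MHC class II barcodes. A large part of that came from Cenpa, a centromeric histone, at 249 and 203 CPM, while Mki67 stood at 29.8 and 38.1. These shares were not thinned to a common depth and are no measure of dividing cells.

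**Figure D3:**
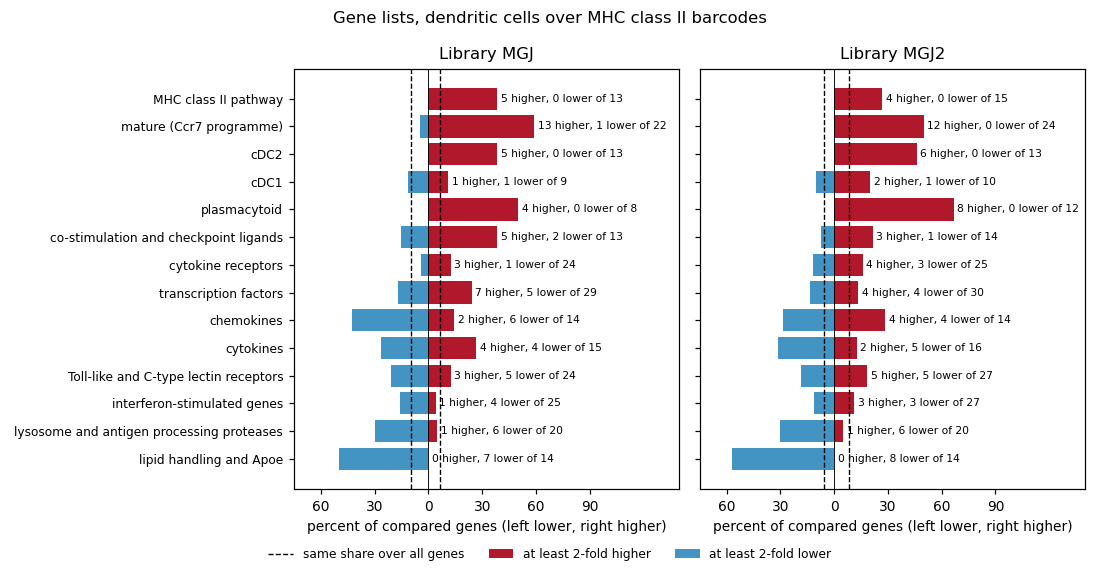
Share of the compared genes of each list (y axis) that were at least 2-fold higher (bars to the right) or lower (bars to the left) in the dendritic cells than in the MHC class II barcodes (x axis, percent), with a panel for each library and dashed lines at the same shares over all genes. The mature list gave 13 of 22 higher in MGJ and 12 of 24 in MGJ2, and the lipid list 7 and 8 of 14 lower.

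Against the wide monocyte set, 794 of 10871 genes were higher (7.30%) and 2408 of 10871 lower (22.2%) in MGJ, and 6.0% were higher and 24.0% lower of 11973 in MGJ2. The mature list gave 19 of 25 and 15 of 24 higher there, and 16 of 23 and 13 of 24 against the narrower monocytes. Pkib, an inhibitor of protein kinase A, was among the 10 genes with the largest ratios over the wide set, at 15.9 and 21.7, and it stood at 10.9 and 11.6 over the narrower set. Of the monocyte markers, 8 of 11 in MGJ and 9 of 12 in MGJ2 were lower than in the narrower monocytes, a set that some of them had chosen.

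The dendritic cells were then split by which of Ccr7, Cd209a or Xcr1 with Clec9a had the most UMIs. In MGJ 83 of 100 were Ccr7 cells (83%, 74.2 to 89.8), 10 were Cd209a cells, 1 was an Xcr1/Clec9a cell and 6 had a tie or none. In MGJ2 287 of 526 were Ccr7 cells (54.6%, 50.2 to 58.9), 157 were Cd209a cells (29.8%, 26.0 to 34.0), 16 were Xcr1/Clec9a cells and 66 the remainder. Only MGJ2 held enough cells outside the Ccr7 group for a comparison within the dendritic cells. A Cd3 UMI was found in 0 Ccr7 cells of MGJ and 15 of MGJ2, and the T cell list as a whole stood at 699.9 CPM in the Ccr7 cells of MGJ2 and 648 in all dendritic cells. Without every dendritic cell that held a Cd3 UMI, the Ccl22 ratio of Ccr7 cells over the other dendritic cells of MGJ2, given below, was 4.55.

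In MGJ2 the mature genes were higher in the Ccr7 cells. Over the other dendritic cells, 11 of 24 genes of the mature list were higher and 0 lower, with a median of 1.97, against 3.68% higher and 3.41% lower over 8757 genes. Ccl22 stood at 343 CPM in Ccr7 cells, 79.7 in Cd209a cells, 121 in Xcr1/Clec9a cells and 54.7 in the remainder, and the ratio of Ccr7 cells over all others was 4.52 (3.87 to 5.31). Tbc1d4 stood at 269.6, 25.5, 209.8 and 26 CPM in the same order, and so was high in Xcr1/Clec9a cells as well. Il4i1 had a ratio of 9.31 (6.52 to 13.7), Serpinb9 of 5.05 (4.22 to 6.09), Arap2 of 5.80, Mmp25 of 4.32 and Socs2 of 5.32. Fscn1 had 15.7 (5.11 to 78.1) with 3 UMIs in the other dendritic cells. H2-DMb2 and H2-Eb2 were 3.81-fold and 5.88-fold higher, so these 2 class II genes, past 2-fold over the MHC class II barcodes, stood highest in the Ccr7 cells among the compared subgroups. Ccl5 stood at 469 CPM in Ccr7 cells and 101 in Cd209a cells. The granule genes Mpo, Prtn3, Elane and Ctsg were higher in the Ccr7 cells through 1 cell with 516 Mpo UMIs.

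**Figure D4:**
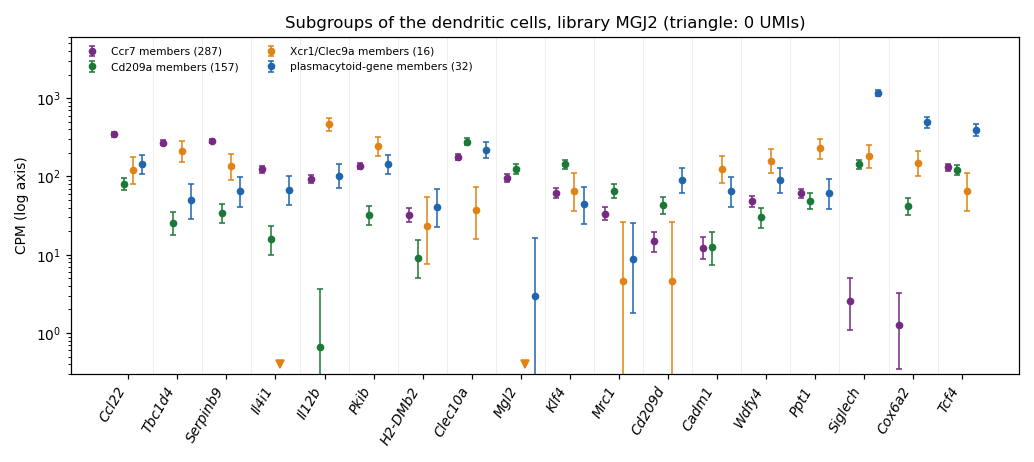
Level in CPM (y axis, log scale) of genes (x axis) in subgroups of the MGJ2 dendritic cells, with points for the summed level of a subgroup, bars for the exact Poisson 95% interval and triangles for 0 UMIs. The cells with plasmacytoid genes also belong to the other subgroups. Ccl22 was 343 CPM in Ccr7 cells and 79.7 in Cd209a cells, whereas Clec10a was 177 and 278.

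The same genes were read across the Ccr7 count of a cell. Cells with 0, 1, 2 to 4, 5 to 14 and 15 or more Ccr7 UMIs numbered 11, 5, 19, 34 and 31 in MGJ and 199, 26, 71, 93 and 137 in MGJ2. Ccl22 stood at 0, 0, 39.9, 144 and 563 CPM in these bins in MGJ and at 36.2, 42.9, 148, 268 and 504 CPM in MGJ2. Serpinb9 stood at 40.6, 85.7, 47.6, 131 and 463 CPM in MGJ2, and Il4i1 at 11.7, 6.12, 60.3, 95.7 and 162 CPM. In MGJ the last bin stood at 571 CPM of Serpinb9 and 691 of Il4i1. Each of the 3 genes was highest in the last bin, which held 31 and 137 cells, in both libraries. Ly6c2, a monocyte antigen, stood at 245, 815, 59.8, 102 and 3.75 CPM in MGJ and at 365, 661, 324, 426 and 155 CPM in MGJ2, and was lowest in the last bin in both. A cell with more UMIs in all has more Ccr7 UMIs, and the median depth of the bins ran from 6185 to 7835 UMIs in MGJ and from 9279 to 10519 in MGJ2.

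**Figure D5:**
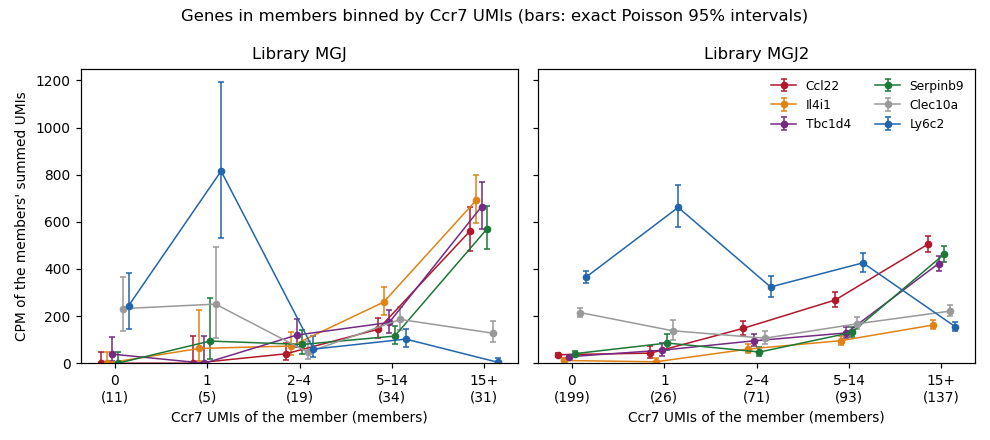
Level in CPM (y axis) of genes in dendritic cells binned by their Ccr7 UMIs (x axis), with the number of cells in brackets, a panel for each library, points for the summed level of a bin and bars for the exact Poisson 95% interval. Ccl22 was at 563 CPM in MGJ and 504 in MGJ2 in cells with 15 or more Ccr7 UMIs, and at 0 and 36.2 in cells with none.

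The 157 Cd209a cells of MGJ2 had the opposite order for the mature list, with 0 of 24 genes higher and 11 lower than in the other dendritic cells, beside 2.06% and 6.77% over all genes. Since the Ccr7 cells were most of the others, this restates the comparison above from the other side. Clec10a stood at 278 CPM and Mgl2 at 126, against 177 and 95.6 in Ccr7 cells, so these cDC2 lectins were present in both. Klf4, a transcription factor of cDC2, was 142 CPM in Cd209a cells and 61.1 in Ccr7 cells, and the lectin Mrc1 was 66 and 33.5. Cd209d, a relative of Cd209a, was 43.1 CPM in Cd209a cells and 14.9 in Ccr7 cells, and reads may be shared between the relatives. Proliferation genes were lower, in 10 of 16 of the S phase list and 9 of 11 of the G2 and M phase list. The 16 Xcr1/Clec9a cells were too few to compare, and are given by level alone. Cadm1, an adhesion molecule of cDC1, stood there at 126 CPM from 27 UMIs, against 12.3 in Ccr7 cells and 12.4 in Cd209a cells. Wdfy4, which cDC1 need for cross-presentation, stood at 159 CPM, against 48.1 and 30. Il12b reached 462 CPM there, from 3 cells, against 92.7 in Ccr7 cells.

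Plasmacytoid genes were carried by few cells. On this list 4 of 8 genes in MGJ and 8 of 12 in MGJ2 were higher than in the MHC class II barcodes and 0 and 0 lower. Among all genes, 6.55% and 8.25% were higher and 9.93% and 5.71% lower. Siglech, a surface lectin of plasmacytoid dendritic cells, stood at 28.6 CPM in MGJ and 71.5 in MGJ2, and the chemokine receptor Ccr9 at 68 and 164. The UMIs of 6 plasmacytoid genes (Siglech, Ccr9, Cox6a2, Ly6d, Klk1 and Spib) were summed for each cell. Of the dendritic cells, 88 of 100 and 424 of 526 had none and 4 and 32 had 3 or more, with a highest count of 100 and 201. Within the 32 cells of MGJ2 Siglech reached 1165 CPM, Ccr9 2524 and Klrd1 597, a level chosen by the count for the first pair. By subgroup, Siglech was 2.53 CPM in Ccr7 cells, 144 in Cd209a cells and 186 in the remainder. In Ccr7 cells 9 of 12 plasmacytoid genes were lower than in the other dendritic cells, beside 3.41% of all genes. Of the 32 cells 14 were Ccr7 cells, and 12 of these had 3 to 14 UMIs of the 6 genes. Ly6d, 1 of the 6, is also on the B cell marker list. The rule thus admitted a small group of cells with plasmacytoid RNA, of uneven amount. Without the cells that held 3 or more such UMIs, the ratio of Ccr9 over the MHC class II barcodes went from 5.61 to 0.609 in MGJ and from 6.18 to 0.448 in MGJ2. Ccr9 is among the counted genes, so the removal itself lowers its ratio. The MHC class II barcodes kept their own barcodes with 3 or more such UMIs, 2 in each library, so values below 1 were not read further.

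Some values rested on 1 cell or on RNA of other cells. Cxcl9, a chemokine of the interferon gamma response, was 12.2 CPM in MGJ2, of which 89.9% of the UMIs lay in 1 cell, and its ratio over the MHC class II barcodes went from 2.48 to 0.252 without that cell. In MGJ 1 Cd209a cell held 1512 S100a8 UMIs and 1 dendritic cell 434 Hbb-bs UMIs, which are genes of neutrophils and of red cells. Collagen and other matrix genes summed to 2968 CPM in the dendritic cells of MGJ and 29.8 in MGJ2, beside 1635 and 30.4 in the MHC class II barcodes. The caller Scrublet marked 2 of 100 dendritic cells in MGJ and 18 of 526 in MGJ2 (3.42%) as doublets, and they were kept. Of all kept barcodes it marked 1.03% and 2.86%, below the expected rates of 11.4% and 6.41% it was given, so doublets may have gone unmarked. The libraries shared 19 barcodes, none of them a dendritic cell.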

How the data were processed

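Single-cell libraries were made from enzyme-digested callus with droplet barcoding aimed at 5000 cells each. The deposited filtered matrices hold raw UMI counts for 32285 genes, the output the authors obtained from Cell Ranger (the headers name version 4.0.0) with the GRCm38 genome of the submitters' processing notes. MGJ held 14295 barcodes and 135304426 UMIs, and MGJ2 8009 and 61130834. The filters and the rule given in the report were applied to the counts of each library separately with Python 3.11.15, numpy 2.4.6 and scipy 1.17.1. The members, the 22 gene lists and the 14 marker lists were chosen with earlier results of these data known.

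UMIs were summed over the barcodes of a set. Levels carry exact Poisson intervals, ratios exact conditional binomial intervals and shares exact Clopper-Pearson intervals, at 95%. A gene was compared with at least 20 UMIs in the sets together, and a set with at least 50 barcodes. Each library is 1 sample, so no test was made. Named genes were those of the rule, from each list the 2 with the most UMIs in the dendritic cells and the 2 with the ratio farthest from 1, and the 10 genes with the largest ratios over the wide monocytes and over the MHC class II barcodes. Some genes that this rule picks are not reported here. Others were named after their values were seen to describe their list. For shares at equal depth, each barcode was thinned once to 2000 UMIs, and shallower ones were left out. Scrublet (scanpy 1.11.5) calls served only as an alternative. Scripts were tested on simulated data. Promoters came from RefSeq tables of GRCm38.p6. The alternatives tried were other thresholds of the rule, thinning, doublet calls, equal weighting of cells and the removal of cells with genes of other lineages.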

Additional observations from a re-analysis of the deposited data

How the results depend on the processing

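Each library is a single sample whose day is not given, so differences between mice could not be measured, and intervals cover counting error only. Of 149 shares and counts recomputed under the alternatives, 133 stayed within their interval or within 1.5 times the count. Raising the minimum of the 6 genes to 3 UMIs gave a dendritic cell share of 5.79% in MGJ2 with 60.8% Ccr7 cells, and a minimum of 4 gave 0.594% in MGJ and 5.2% in MGJ2, with 63.5% Ccr7 cells in MGJ2. Without Ccr7 among the genes, an alternative chosen after seeing the data, the dendritic cell share was 0.253% in MGJ and 5.50% in MGJ2, Ccr7 cells were 55.9% and 44.5% of them, and Cd209a cells 36.6% in MGJ2. The rule applied after thinning gave a share of 4.06% in MGJ2, with 68.3% Ccr7 and 21.5% Cd209a cells. Under thinning, 404 genes in MGJ and 364 in MGJ2 were at least 2-fold higher than in the wide monocytes, and 269 in MGJ2 higher than in the MHC class II barcodes, where fewer UMIs leave fewer genes to compare.

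Of 5253 ratios of the 79 named genes under alternatives, 4296 stayed within the counting interval, 372 moved by over 1.5 times, and 26 crossed 1 from a value past 2-fold. For Ccr9 over the wide monocytes of MGJ the ratio became 0.880 with 3 UMIs, 0.819 with 4, 0.317 after thinning and 0.428 without the cells with plasmacytoid genes, and over the MHC class II barcodes 0.380 after thinning and 0.609 without those cells, with 0.448 in MGJ2. For Ly6d it became 0 after thinning over the MHC class II barcodes of MGJ, 0.397 and 0.640 after thinning over the MHC class II barcodes and wide monocytes of MGJ2, and 0.147 and 0.337 there without the cells with plasmacytoid genes. Ccr9 and Ly6d are among the plasmacytoid genes that were counted, so leaving out those cells lowers both ratios by construction. Thinning also gave 0.765 for Mpo over the MHC class II barcodes of MGJ2 and 0.928 for Il12b in Ccr7 cells over the others. Cxcl9 in MGJ2 became 0.246 without barcodes with neutrophil genes and 0.252 both without the cell that held the most of it and without Scrublet calls. Ube2c became 0.60 in MGJ without such a cell and 0.406 in MGJ2 with cells weighted equally. Against the narrower monocytes in place of the wide set, the ratios became 1.16 for Tyms, 1.36 for Mki67 and 1.02 for Lpl in MGJ, and 27.3 for Mpo, 1.47 for Tnfrsf9, 1.60 for Tyms and 1.03 for Mki67 in MGJ2. The narrower set left out barcodes with progenitor genes, Mpo among them, so the Mpo ratio over it rises by construction. Where neither the text nor a value above names it, the cause was not tested. No paired analysis was possible because the result comes from no test and each library is 1 sample.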

Other observations

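Further gene groups were counted over the MHC class II barcodes, beside 6.55% of all genes at least 2-fold higher in MGJ and 8.25% in MGJ2, and 9.93% and 5.71% lower. Of the genes of MHC class I and cross-presentation, 1 of 15 in MGJ and 1 of 15 in MGJ2 were at least 2-fold higher and 0 and 0 lower. Psmb8, a subunit of the immunoproteasome, stood at 436 CPM in the dendritic cells of MGJ and 199 in MGJ2, with ratios of 2.25 (1.96 to 2.57) and 1.33 (1.21 to 1.46). Of the actin and migration genes, 3 of 20 and 2 of 20 were higher and 0 and 1 lower. Of the chemokine receptors, 1 of 7 and 2 of 8 were higher and 1 and 0 lower. Of the genes tied to retinoic acid and tolerance, 1 of 6 and 1 of 6 were higher and 2 and 1 lower. Of the genes of dendritic cell precursors, 4 of 6 and 6 of 7 were higher and 0 and 0 lower. That list holds Siglech and Ly6d, plasmacytoid genes that few cells carried. It also holds Mpo, of which most UMIs in MGJ2 lay in 1 cell, so the count is no sign of precursors. Apol7c, a gene of the mature list, stood at 64.9 CPM in the Ccr7 cells of MGJ2 from 6 cells and had no UMI in the Cd209a and Xcr1/Clec9a cells.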
